A study of Mus musculus with 21 samples.

Results

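The genes described here are 7 genes of the colony-stimulating factor system and its neighbouring cytokine receptor chains: Csf1, Csf1r, Csf2ra, Csf2rb, Csf2rb2, Il2rg and Il3ra. They were chosen by symbol from the 45706 genes of the count table, and all 7 were found. RNA was sequenced from immune cells sorted from the mouse brain after controlled cortical impact (CCI), an open-skull model of traumatic brain injury, to ask how the fibrin-CD11b interaction affects innate immune cells. The 21 libraries fell into 7 groups of 3: sham microglia from WT (C57BL/6) mice, WT and Fgg γ390–396A microglia 1 day (1d) after injury, WT and Fgg γ390–396A microglia 7 days (7d) after injury, and WT and Fgg γ390–396A infiltrating myeloid cells 1d after injury. Fgg γ390–396A mice (Fgg below) are on the C57BL/6 background and make a mutant fibrinogen γ-chain that still clots but lacks the site that CD11b/CD18 binds, in every tissue that makes fibrinogen. All mice were males of 17 to 24 weeks; each library held cells pooled from 2 brains, 40000 microglia (CD45lowCD11b+) or 25000 infiltrating myeloid cells (CD45hiCD11b+), and was counted as 1 replicate. No sham group of the mutant genotype and no 7d myeloid group were used here, and the labels give no time for sham.

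CSF1 and IL-34 are the ligands of CSF1R, a receptor tyrosine kinase on which microglia depend for survival, proliferation and differentiation. GM-CSF, IL-3 and IL-5 each bind a private alpha chain (CSF2RA and IL3RA among them) that pairs with the signaling beta common chain encoded by Csf2rb. The mouse carries a sister gene, Csf2rb2, whose product serves IL-3 alone. IL2RG is the gamma common chain shared by the receptors of IL-2, IL-4, IL-7, IL-9, IL-15 and IL-21. The beta and gamma common chains have no kinase of their own and signal through Janus kinases and STAT5.

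Csf2rb and Csf2rb2 are near-identical copies, so the reads that separate them matter for every value of the pair. In GRCm38 they lie 20031 bases apart on chromosome 15, Csf2rb on the plus strand at chr15:78325752-78353847 and Csf2rb2 on the minus strand at chr15:78282507-78305721. Their reference coding sequences (transcripts Csf2rb-201 and Csf2rb2-201 of GENCODE M21, 2688 and 2634 bases) were identical at 2503 of 2628 aligned bases (95.2%), with 66 bases in gaps. Of all 31-base words of the Csf2rb transcript, UTRs included, 28.9% also occurred in the Csf2rb2 transcript, as did 7.16% of its 100-base words, 100 bases being the read length. The stretch of 100 coding bases with the most differences is shown first, with the 17 differing bases in capitals (coding bases 314 to 413 of Csf2rb and 317 to 416 of Csf2rb2, counted from the start codon), since reads like these could be assigned to 1 copy. 
Csf2rb, bases that differ: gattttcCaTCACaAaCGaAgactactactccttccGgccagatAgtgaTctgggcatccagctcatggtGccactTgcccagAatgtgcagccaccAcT
Csf2rb2, bases that differ: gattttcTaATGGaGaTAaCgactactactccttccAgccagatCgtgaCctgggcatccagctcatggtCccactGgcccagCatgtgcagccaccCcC
The longest identical stretch, coding bases 2083 to 2324 of both genes, is shown next in lower case, since a read within its 242 bases fits both copies equally.
Csf2rb and Csf2rb2, identical: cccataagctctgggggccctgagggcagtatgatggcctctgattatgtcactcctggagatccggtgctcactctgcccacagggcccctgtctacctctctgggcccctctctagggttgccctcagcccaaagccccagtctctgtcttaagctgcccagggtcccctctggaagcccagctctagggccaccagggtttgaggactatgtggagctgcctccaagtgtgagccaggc

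Promoter sequences are shown for Csf1 and Il2rg, whose levels moved together across the libraries, and for Csf2ra and Csf2rb2, which were higher in WT microglia 1d after injury. They are the 250 bases before the RefSeq start (GRCm38.p6, minus strand in each case, written 5′ to 3′ on the gene's strand), and 5 of the 7 genes were in the table. The motifs searched on both strands were AGGAAG (the ETS and PU.1 core), TTCNNNGAA (STAT), TGANTCA (AP-1), TGACGTCA (CRE) and the NF-kB consensus, and capitals mark every match, adjoining matches running together. 
Csf1 promoter: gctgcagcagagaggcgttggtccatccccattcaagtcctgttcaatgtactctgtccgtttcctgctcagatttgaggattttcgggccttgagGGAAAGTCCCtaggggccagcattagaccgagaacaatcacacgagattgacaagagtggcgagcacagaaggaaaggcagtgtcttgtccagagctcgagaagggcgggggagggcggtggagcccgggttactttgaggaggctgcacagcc
Il2rg promoter: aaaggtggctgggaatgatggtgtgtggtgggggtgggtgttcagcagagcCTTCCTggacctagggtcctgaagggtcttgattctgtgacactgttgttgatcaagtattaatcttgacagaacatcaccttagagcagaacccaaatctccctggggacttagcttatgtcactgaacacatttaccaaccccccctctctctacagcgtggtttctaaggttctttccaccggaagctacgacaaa
Csf2ra promoter: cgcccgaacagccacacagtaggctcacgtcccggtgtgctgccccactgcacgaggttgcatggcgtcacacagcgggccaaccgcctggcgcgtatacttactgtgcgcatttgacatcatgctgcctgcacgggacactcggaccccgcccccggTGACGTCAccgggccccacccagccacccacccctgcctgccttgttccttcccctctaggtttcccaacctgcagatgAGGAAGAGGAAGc
Csf2rb2 promoter: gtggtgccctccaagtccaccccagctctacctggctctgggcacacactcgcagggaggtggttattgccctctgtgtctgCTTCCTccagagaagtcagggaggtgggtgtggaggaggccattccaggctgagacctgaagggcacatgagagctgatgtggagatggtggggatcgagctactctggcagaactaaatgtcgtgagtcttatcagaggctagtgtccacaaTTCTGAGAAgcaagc
These windows lie at chr3:107760470-107760719, chrX:101268256-101268505, chr19:61228419-61228668 and chr15:78305722-78305971. The Csf1 window held 1 match to the NF-kB consensus, 154 to 145 bases before the start, and the Il2rg window 1 AGGAAG on the opposite strand, 199 to 194 bases before the start. The Csf2ra window held 1 TGACGTCA and, directly before the start, 2 adjoining AGGAAG, and the Csf2rb2 window 1 AGGAAG on the opposite strand and 1 TTCNNNGAA 15 to 7 bases before the start. Over 32851 promoters of the same length, AGGAAG occurred in 29.5%, TTCNNNGAA in 7.02%, TGANTCA in 6.75%, TGACGTCA in 1.55% and the NF-kB consensus in 7.25%, so the matches are a description of these windows.

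The deposited values were gene counts estimated with transcript length divided out, so that levels could be compared between genes within a library. Totals ran from 18896957 to 51875767 counts per library (median 27001646), of which 43.0 to 58.5% fell on ribosomal RNA genes, and all 7 members passed the filter of 5 counts over all libraries. A level is given below as CPM, the count relative to its library's total, scaled by edgeR's trimmed mean of M-values, where 3 counts were worth 0.0448 to 0.158 CPM. A gene was called when its log2 fold change was beyond 1 in size and its adjusted p was under 0.05 in edgeR's quasi-likelihood test over the 23815 genes tested. Outside the genotype comparisons, statements that libraries did not overlap are descriptions, since the share of all genes without overlap is not given there. Fgg was at 0 counts in all sham and WT libraries and at 0 to 14 in the mutant ones, too few to check the genotype labels by level. The summed CPM of 11 microglial markers was 12889 to 14550 in sham and 4375 to 10640 in injured microglia, against 473 to 1177 in the myeloid libraries. The summed CPM of 11 neutrophil markers was 1.91 to 822 in microglial and 2528 to 13166 in myeloid libraries. The summed CPM of 10 monocyte markers in myeloid libraries was 1572 to 2967, so that markers of both lists were present in that gate. A few genes carried these sums. In WT myeloid cells S100a8 and S100a9 had means of 4342 and 3480 CPM, against 169 for Retnlg and 2.83 for Ly6g. Among the monocyte markers Thbs1 had a mean of 1348 CPM there, against 352 for Ccr2. In sorted bulk samples fewer cells of a type and less RNA per cell cannot be told apart.

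Csf1r had the highest mean of the 7 genes in every group and Il3ra the lowest, although in WT myeloid replicate 3 Csf2ra (194 CPM) lay above Csf1r (185 CPM). Csf1r ranged over group means of 224 to 1323 CPM, and Il3ra over 0.0715 to 2.64 CPM. The highest group mean was 50.1 times the lowest for Il2rg, 36.9 times for Il3ra, 9.62 times for Csf1, and between 4.39 and 7.76 times for the other 4. Csf1r was the only one of the 7 with its highest group mean in sham microglia. The other 6 had their lowest group mean there and their highest in a myeloid group.

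**Figure D1:**
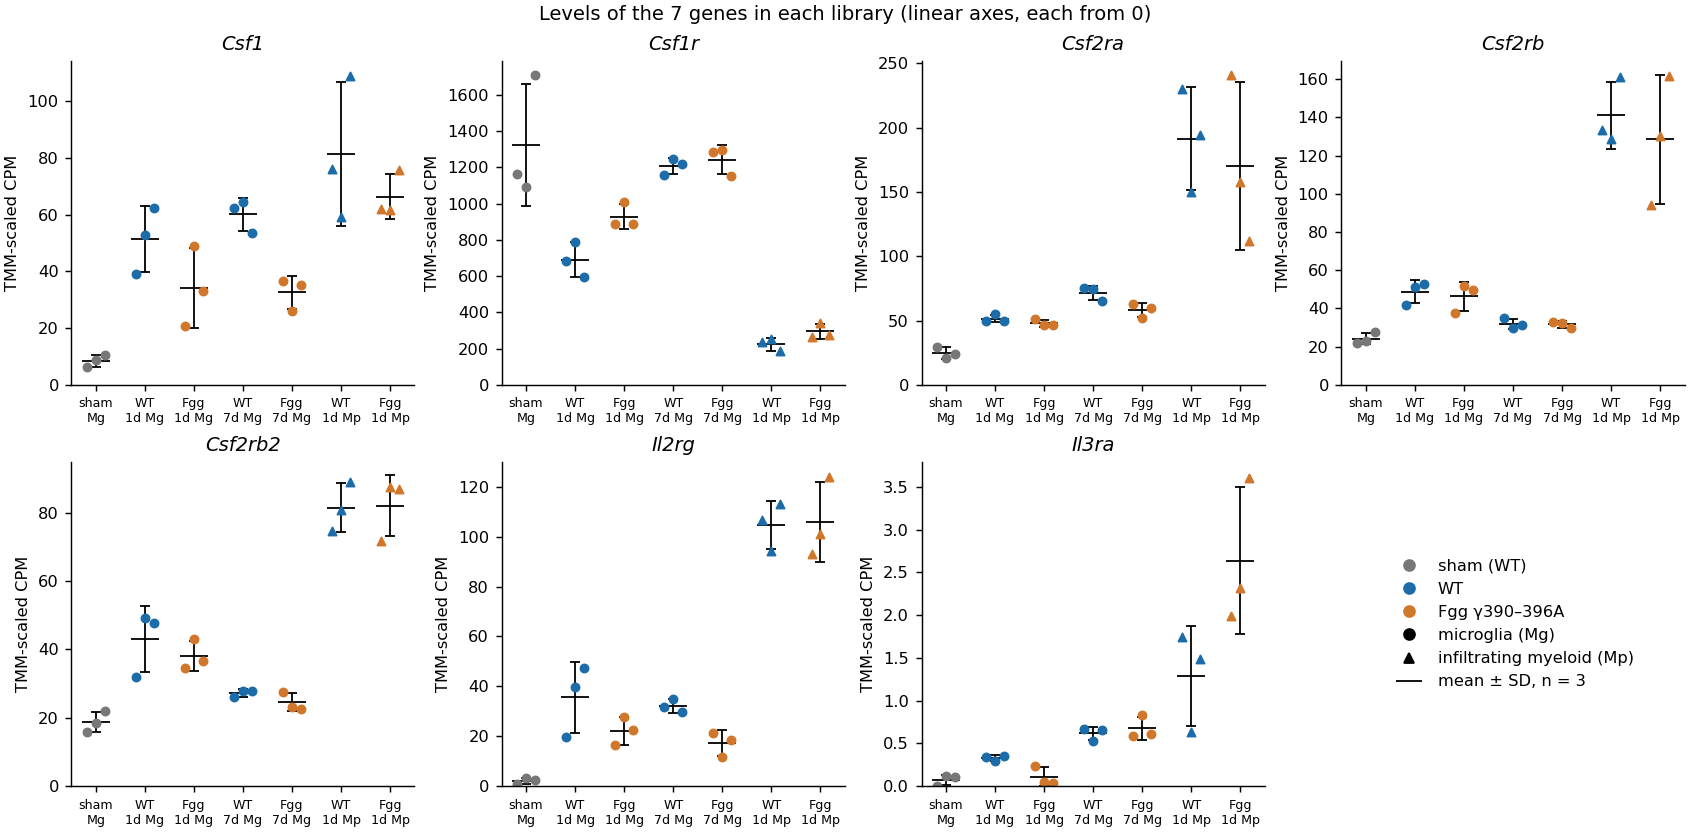
TMM-scaled CPM (linear axes from 0) of each gene in the 21 libraries, with circles for microglia, triangles for infiltrating myeloid cells, and bars for the mean ± SD of 3 libraries. Csf1r stood at 1093 to 1711 CPM in sham and at 185 to 344 CPM in the myeloid libraries, while the other 6 genes had their lowest mean in sham. For Il3ra, Fgg 1d microglial libraries at 0.0402 and 0.0503 CPM lay below sham libraries at 0.101 and 0.114 CPM.

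Csf1 encodes the main growth factor of the macrophage lineage (chr3:107741048-107760469, minus strand, 24.7 Mb from Fgg on the same chromosome). It stood at 6.25, 8.69 and 10.5 CPM in the sham libraries and at 39.1, 52.8 and 62.3 CPM in WT microglia 1d after injury. The levels were 62.4, 64.7 and 53.6 CPM in WT microglia at 7d. In Fgg microglia they were 20.8, 48.9 and 33.1 CPM at 1d and 36.7, 26.0 and 35.4 CPM at 7d. Every injured library lay above every sham library, and the lowest injured one was Fgg 1d replicate 1. The log2 fold change over sham was 2.60 ± 0.30 (SE, edgeR adjusted p = 4.65e-06) in WT and 2.01 ± 0.29 (adjusted p = 1.06e-04) in Fgg microglia at 1d. At 7d it was 2.83 ± 0.30 (edgeR adjusted p = 2.15e-05) in WT and 1.95 ± 0.29 (adjusted p = 0.00161) in Fgg microglia. All 4 comparisons use the same 3 sham libraries. Between 7d and 1d Csf1 differed by 0.23 ± 0.28 (log2, edgeR adjusted p = 0.699) in WT and by -0.07 ± 0.28 (adjusted p = 1.0) in Fgg microglia.

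Il2rg (chrX:101264378-101268255, minus strand) had the largest log2 fold changes of the 7 over sham in WT microglia, from a low sham level. The sham libraries held 24, 84 and 95 counts, or 0.765, 3.19 and 2.39 CPM. WT microglia at 1d held 19.6, 39.8 and 47.3 CPM, and those at 7d 31.7, 34.9 and 29.6 CPM. Fgg microglia held 16.5, 27.5 and 22.4 CPM at 1d and 21.4, 11.6 and 18.6 CPM at 7d. No injured library overlapped the sham range. The log2 fold changes over sham were 4.08 ± 0.41 (edgeR adjusted p = 1.20e-06) and 3.93 ± 0.40 (adjusted p = 2.15e-05) in WT microglia at 1d and 7d. In Fgg microglia they were 3.39 ± 0.40 (edgeR adjusted p = 1.47e-05) at 1d and 3.03 ± 0.39 (adjusted p = 5.83e-04) at 7d. The gene Gm20489, annotated on the same strand across Il2rg, held 0 to 19 counts per library, at most 0.756% of the Il2rg count.

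Lymphocytes carry Il2rg as well, and blood-derived cells carry most of these receptors, so the markers of other cells stand here beside the microglial values. Of 10 T and NK cell markers, the summed CPM was 0.0503 to 3.23 in sham and 0.435 to 3.45 in injured microglia. Over 3 counts in the group were found for 2 of the 10 in sham and for 4 to 5 in the injured groups. The summed CPM of 10 monocyte markers was 8.26 to 72.6 in sham and 24.8 to 134 in injured microglia. In WT microglia at 1d the monocyte markers stood at 3.26%, the neutrophil markers at 6.18%, the T and NK cell markers at 9.09% and the markers of border macrophages at 10.5% of their median sum in WT myeloid cells. Il2rg stood at 34.0%, Csf2rb at 34.6%, Csf2ra at 26.9% and Csf1 at 63.1% of its myeloid mean. In Fgg microglia at 1d the same marker sums were at 1.44%, 1.13%, 6.07% and 6.20%, and Il2rg was at 20.9% of its myeloid mean. These shares rest largely on Thbs1 for the monocyte list and on S100a8 and S100a9 for the neutrophil list. The part of such cells in these values was not tested.

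Csf1r, the receptor of CSF1 and IL-34, lies on chromosome 18 (61100598 to 61132149, plus strand). It was lower in WT microglia at 1d than in sham, short of the fold threshold. The sham libraries stood at 1166, 1093 and 1711 CPM, the third well above the other two. WT microglia held 682, 790 and 597 CPM at 1d and 1157, 1245 and 1221 CPM at 7d. Fgg microglia held 886, 1009 and 889 CPM at 1d and 1283, 1296 and 1151 CPM at 7d. No WT or Fgg library at 1d overlapped the sham range, whereas the 7d libraries lay within it. The log2 fold change over sham in WT microglia at 1d was -0.94 ± 0.18 (edgeR adjusted p = 0.00104), and it was -0.51 ± 0.18 (adjusted p = 0.0922) in Fgg microglia. At 7d the values were -0.13 ± 0.18 (edgeR adjusted p = 0.879) and -0.09 ± 0.18 (adjusted p = 1.0). From 1d to 7d Csf1r differed by 0.81 ± 0.18 (log2, edgeR adjusted p = 0.0061) in WT and by 0.42 ± 0.18 (adjusted p = 0.241) in Fgg microglia. The 1d fall passed the fold threshold at -1.04 with DESeq2, at -1.02 without sham replicate 1, at -1.06 without sham replicate 2 and at -1.02 without WT 1d replicate 2. With 1 library left out at a time, the WT fall at 1d ranged from -1.06 to -0.71. The summed microglial markers were also below sham (12889 to 14550 CPM) at 1d, at 4375 to 6223 CPM in WT microglia. At 7d they were still below sham, at 8613 to 9515 CPM in WT and 9232 to 10640 CPM in Fgg microglia, where Csf1r lay within its sham range. The part of these markers in the Csf1r values was not tested. Hmgxb3, annotated on the opposite strand at the 3′ end of Csf1r, held at most 1.02% of its count.

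Csf2ra, the GM-CSF-binding alpha chain (chr19:61223957-61228429, minus strand), was higher than sham in WT microglia at both times. The libraries held 29.6, 20.7 and 23.7 CPM in sham, 49.7, 54.7 and 50.0 CPM in WT microglia at 1d and 75.3, 74.4 and 65.3 CPM at 7d. Fgg microglia held 51.0, 46.4 and 46.2 CPM at 1d and 62.5, 52.2 and 59.5 CPM at 7d. Sham lay below all injured libraries, and in each genotype the 7d libraries lay above the 1d libraries. In Fgg microglia the nearest libraries of the 7d and 1d groups were at 52.2 and 51.0 CPM. The log2 fold change over sham was 1.06 ± 0.22 (edgeR adjusted p = 0.00169) and 1.54 ± 0.22 (adjusted p = 4.76e-04) in WT at 1d and 7d. In Fgg microglia it was 0.96 ± 0.22 (edgeR adjusted p = 0.00631), under the fold threshold, at 1d and 1.24 ± 0.22 (adjusted p = 0.00768) at 7d. Without sham replicate 1 the Fgg value at 1d passed the threshold at 1.11. The WT call at 1d was lost at 0.95 without sham replicate 2 and at 0.96 with DESeq2, and without sham replicate 2 the Fgg value at 7d was 1.13 with an adjusted p of 0.0676. Between 7d and 1d Csf2ra differed by 0.48 ± 0.22 (log2, edgeR adjusted p = 0.201) in WT and by 0.28 ± 0.22 (adjusted p = 0.564) in Fgg microglia.

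The beta chain genes had another time course, higher at 1d and closer to sham at 7d. Csf2rb stood at 22.0, 23.1 and 27.5 CPM in sham, 42.0, 51.3 and 52.9 CPM in WT microglia at 1d and 34.7, 29.6 and 31.3 CPM at 7d. Csf2rb2 stood at 15.9, 18.3 and 21.8 CPM in sham, 31.8, 49.1 and 47.8 CPM at 1d and 25.9, 27.7 and 27.9 CPM at 7d. For both genes the 3 groups of WT microglia did not overlap. At 1d the log2 fold change over sham was 1.01 ± 0.19 (edgeR adjusted p = 5.92e-04) for Csf2rb and 1.20 ± 0.18 (adjusted p = 6.41e-05) for Csf2rb2. At 7d it was 0.40 ± 0.19 (edgeR adjusted p = 0.411) and 0.54 ± 0.17 (adjusted p = 0.136). From 1d to 7d Csf2rb differed by -0.61 ± 0.19 (log2, edgeR adjusted p = 0.0385) and Csf2rb2 by -0.66 ± 0.17 (adjusted p = 0.0172), neither past the fold threshold. In Fgg microglia at 1d Csf2rb2 was called at 1.03 ± 0.18 (edgeR adjusted p = 5.41e-04) and Csf2rb was not, at 0.94 ± 0.19 (adjusted p = 0.00191), and the difference between these calls was not tested.

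These calls of the beta chain genes lay near the fold threshold. In WT microglia at 1d Csf2rb fell short of it at 0.95 without sham replicate 1, at 0.98 without sham replicate 2, at 0.98 without WT 1d replicate 3 and at 0.91 with DESeq2. In Fgg microglia at 1d Csf2rb2 fell short at 0.92 without sham replicate 1, at 0.93 without Fgg 1d replicate 2 and at 0.89 with DESeq2, and Csf2rb passed at 1.07 without Fgg 1d replicate 1 and at 1.04 without sham replicate 3.

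Summed over both copies, where the division of shared reads drops out, the beta chain counts stood at 37.8, 41.4 and 49.3 CPM in sham and 73.8, 100.4 and 100.7 CPM in WT microglia at 1d. The log2 fold change was 1.10 ± 0.17 (edgeR adjusted p = 1.42e-04). Of the counts of the pair, Csf2rb2 took 41.6 to 48.9% in the 15 microglial libraries and 34.9 to 43.2% in the 6 myeloid libraries. The 3 WT myeloid libraries, at 35.6 to 38.6%, lay below the 3 WT microglial libraries of the same day, at 43.1 to 48.9%. In Fgg cells the ranges overlapped, at 34.9 to 43.2% and 42.4 to 47.9%. Whether this share follows the cells or the estimated division of shared reads cannot be told apart here.

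**Figure D2:**
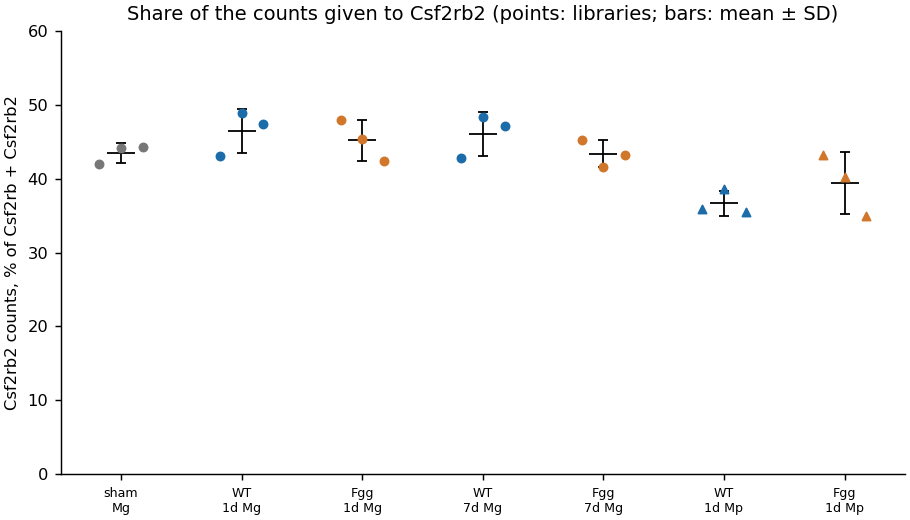
Counts given to Csf2rb2 as a percentage of the counts of Csf2rb and Csf2rb2 together, for each of the 21 libraries (circles for microglia, triangles for myeloid cells), with the mean ± SD of 3 libraries. WT myeloid libraries sat at 35.6 to 38.6%, Fgg myeloid libraries at 34.9 to 43.2% and microglial libraries at 41.6 to 48.9%, so that the Fgg myeloid and microglial ranges overlapped.

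Il3ra, the alpha chain of the IL-3 receptor (chr14:14346275-14356011, plus strand), was near detection in microglia. The sham libraries held 0, 3 and 4 counts, and WT microglia held 9, 8 and 9 counts 1d after injury and 14, 13 and 17 at 7d. In Fgg microglia the counts were 16, 2 and 1 at 1d, then 23, 23 and 17 at 7d. The 7d libraries of both genotypes lay above sham, at 0.528 to 0.825 CPM against at most 0.114 CPM. The log2 fold change over sham at 7d was 3.04 ± 0.90 (edgeR adjusted p = 0.0873) in WT and 3.17 ± 0.90 (adjusted p = 0.141) in Fgg microglia, and neither was called. DESeq2 gave 3.10 (adjusted p = 0.00251) and 3.21 (adjusted p = 0.00275) for the same values, and both were called. DESeq2 also called Il3ra in WT microglia at 1d over sham (2.10, adjusted p = 0.0342) and, with all libraries, between 7d and 1d in Fgg microglia (2.51, adjusted p = 0.00315). Without Fgg 1d replicate 1, which held 16 of the 19 counts of its group, edgeR called Il3ra in the latter comparison too (log2 3.76, edgeR adjusted p = 0.032).

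Counted together, 5 of the 7 genes were called higher than sham in WT microglia at 1d (Csf1, Csf2ra, Csf2rb, Csf2rb2 and Il2rg), where 8.06% of all genes tested were called higher. In WT microglia at 7d 3 were called higher (Csf1, Csf2ra and Il2rg), against 1.93% of all genes. In Fgg microglia 3 were called higher at 1d (Csf1, Csf2rb2 and Il2rg), against 5.49%, and 3 at 7d (Csf1, Csf2ra and Il2rg), against 0.63%. In the main edgeR fit none was called lower. Of all genes, 4.21% and 0.0924% were called lower in WT and 1.15% and 0.0336% in Fgg microglia at 1d and 7d. Csf1r was called lower in WT microglia at 1d by DESeq2, and by edgeR with DESeq2's size factors and with total counts. EdgeR also called it without sham replicate 1, without sham replicate 2 and without WT 1d replicate 2. The median log2 fold change of the 7 was 1.20 and 1.54 in WT and 0.96 and 1.24 in Fgg microglia at 1d and 7d, where the median of all genes was 0. Between 7d and 1d the main edgeR fit called none of the 7 in either genotype. Of all genes it called 7.06% in WT and 3.54% in Fgg microglia. In each genotype 4 members had an unadjusted edgeR p under 0.05 (22.0% and 16.4% of all genes), and DESeq2 called 0 in WT and 1 in Fgg microglia.

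**Figure D3:**
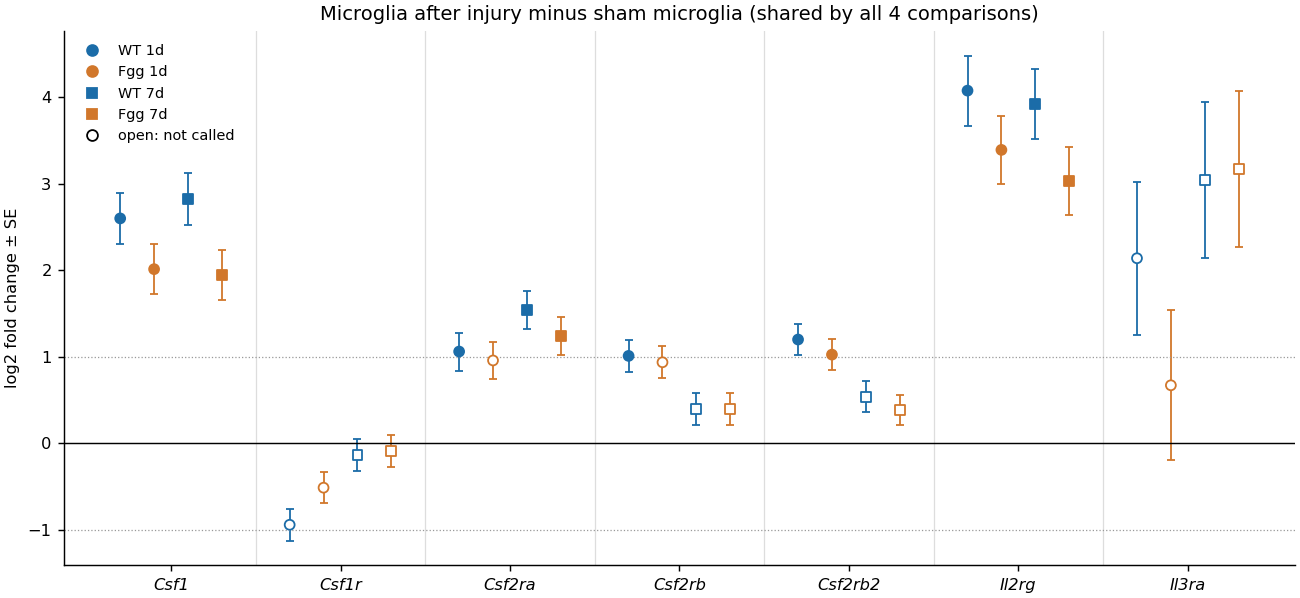
Log2 fold change over sham microglia ± SE for each gene in WT and Fgg microglia at 1d (circles) and 7d (squares), filled where called and open where not, with dotted lines at the fold threshold of 1. Csf1 and Il2rg were called in all 4 comparisons, and Csf1r was the only gene below 0 in all 4, although with total counts Csf2rb and Csf2rb2 also lay below 0 in WT microglia at 7d.

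The sizes and calls depend on the scaling, as do the directions of Csf2rb and Csf2rb2 in WT microglia at 7d. The TMM factors were 1.39 to 1.55 in the sham libraries and 0.735 to 1.29 in the others. Ribosomal RNA genes held 43.4 to 47.8% of the counts in sham and 50.6 to 58.5% in WT microglia at 1d, and their part in this was not tested. With total counts in place of TMM, an alternative chosen after seeing the data, the median log2 fold change of all genes in WT microglia at 1d over sham moved from 0 to -0.67. Csf1 and Il2rg stayed called at 1.83 and 3.28, and Csf1r was called lower at -1.67. Csf2ra, Csf2rb and Csf2rb2 were then not called, at 0.31, 0.25 and 0.42. Relative to the shifted median these values were 2.50 for Csf1, 3.95 for Il2rg, 0.98 for Csf2ra, 0.93 for Csf2rb and 1.09 for Csf2rb2. At 7d the WT value of Csf2ra was 0.97, and those of Csf2rb and Csf2rb2 turned to -0.15 and -0.01, with the all-gene median at -0.47.

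**Figure D4:**
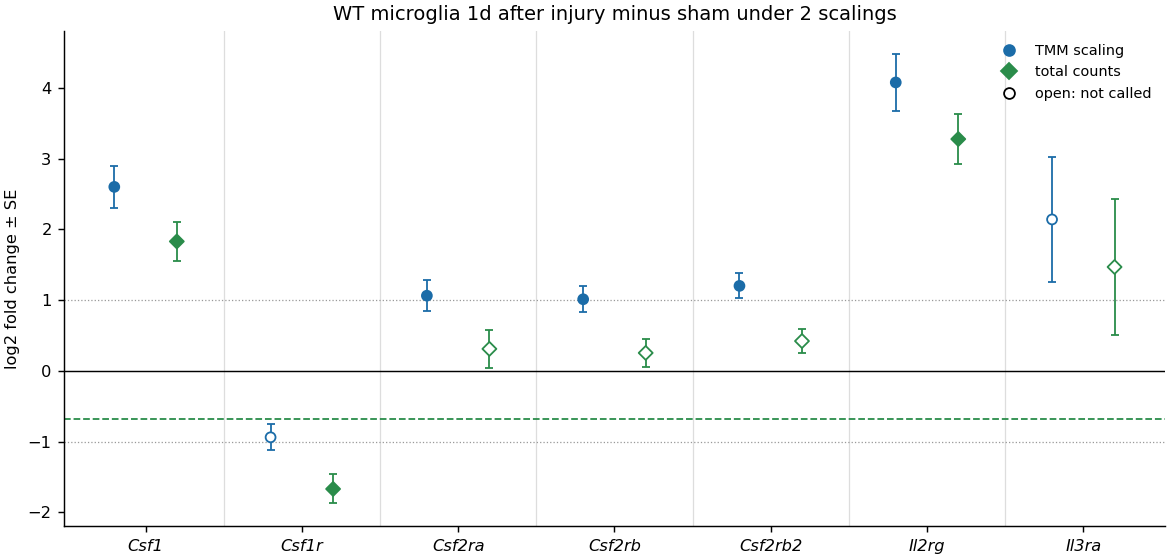
Log2 fold change ± SE of the 7 genes in WT microglia 1d after injury over sham under TMM scaling (circles) and total counts (diamonds), filled where called. The dashed line marks the all-gene median under total counts, at -0.67, and all 7 genes lie lower under total counts.

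At 1d Csf2ra, Csf2rb and Il2rg were called higher and Csf1r lower in infiltrating myeloid cells than in microglia in both genotypes, and Csf2rb2 and Il3ra were called higher in Fgg cells. Csf1r stood at 234, 253 and 185 CPM in WT and 264, 344 and 277 CPM in Fgg myeloid cells, below every microglial library. It was 1.62 ± 0.19 lower on the log2 scale in WT (log2 fold change -1.62, edgeR adjusted p = 5.37e-06) and 1.65 ± 0.19 lower in Fgg cells (log2 fold change -1.65, adjusted p = 3.43e-06). Csf2ra stood at 230, 150 and 194 CPM in WT and 241, 158 and 112 CPM in Fgg myeloid cells, above every microglial library. Its log2 fold change was 1.90 ± 0.22 (edgeR adjusted p = 6.83e-06) in WT and 1.83 ± 0.22 (adjusted p = 7.93e-06) in Fgg cells. Csf2rb stood at 133, 129 and 161 CPM in WT and 94.1, 130 and 162 CPM in Fgg myeloid cells, with a log2 fold change of 1.53 ± 0.19 (edgeR adjusted p = 1.03e-05) and 1.47 ± 0.19 (adjusted p = 1.27e-05). Both genes were higher than in microglia in every myeloid library.

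Il2rg stood at 107, 94.3 and 113 CPM in WT and 93.1, 101 and 124 CPM in Fgg myeloid cells, higher than in microglia by a log2 fold change of 1.56 ± 0.36 (edgeR adjusted p = 0.0046) in WT and 2.26 ± 0.37 (adjusted p = 1.68e-04) in Fgg cells. Csf2rb2 was called in Fgg cells at 1.11 ± 0.18 (edgeR adjusted p = 1.27e-04) and not in WT at 0.92 ± 0.17 (adjusted p = 8.71e-04), which passed at 1.08 without WT 1d microglia replicate 2 and at 1.06 without replicate 3. Il3ra held 72, 12 and 33 counts in WT and 44, 94 and 129 counts in Fgg myeloid cells. It was called in Fgg cells at 4.46 ± 0.91 (log2, edgeR adjusted p = 0.00147) against microglial libraries of 16, 2 and 1 counts, and not in WT at 1.96 ± 0.83 (adjusted p = 0.126), where DESeq2 called it at 2.04. Csf1, the ligand, stood at 76.3, 59.1 and 109 CPM in WT and 62.1, 61.5 and 75.7 CPM in Fgg myeloid cells. Its log2 fold change over microglia was 0.66 ± 0.28 (edgeR adjusted p = 0.122) in WT and 0.96 ± 0.28 (adjusted p = 0.018) in Fgg cells, neither called. In Fgg cells it passed the fold threshold at 1.30 without Fgg 1d microglia replicate 2, at 1.12 without myeloid replicate 1, at 1.01 without myeloid replicate 2 and at 1.09 with DESeq2. In all, 3 of the 7 were called higher and 1 lower in WT, where 5.61% of all genes were called higher and 6.31% lower. In Fgg cells 5 were called higher and 1 lower, against 6.96% and 9.7%. The neutrophil and monocyte marker sums moved with this comparison, and their part in it was not tested.

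No member differed between genotypes at the adjusted threshold. Between Fgg and WT microglia at 1d edgeR called 0 of the 7 (0.042% of all genes), at 7d 0 (0.0378%) and in myeloid cells 0 (0.197%). At an unadjusted p under 0.05 edgeR had 2, 2 and 1 of the 7 in these comparisons, where 5.08%, 3.34% and 11.5% of all genes had one, and DESeq2 called 0 of the 7 in each. The lowest unadjusted p was that of Csf1 at 7d, with a log2 fold change of -0.88 ± 0.28 (edgeR adjusted p = 1.0) and all 3 Fgg libraries (26.0 to 36.7 CPM) below all 3 WT libraries (53.6 to 64.7 CPM). Il2rg at 7d was at -0.90 ± 0.35 (log2, edgeR adjusted p = 1.0), with 11.6 to 21.4 CPM in Fgg and 29.6 to 34.9 CPM in WT microglia. Csf2ra at 7d was the third gene whose Fgg libraries lay below all WT libraries, at 52.2 to 62.5 against 65.3 to 75.3 CPM, with a log2 fold change of -0.30 ± 0.22 (edgeR adjusted p = 1.0). So 3 of the 7 lay lower without overlap, where 5.28% of all genes did.

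At 1d the ranges of Csf1 in Fgg and WT microglia overlapped, with a log2 fold change of -0.59 ± 0.28 (edgeR adjusted p = 0.89), as did those of Il2rg, at -0.68 ± 0.35 (adjusted p = 0.89). Csf1r lay higher in every Fgg than in every WT library in microglia at 1d (0.43 ± 0.18, edgeR adjusted p = 0.89) and in myeloid cells (0.40 ± 0.18, adjusted p = 0.42), where 5.73% and 3.16% of all genes were higher without overlap. The summed microglial markers were 6319 to 8001 CPM in Fgg against 4375 to 6223 CPM in WT microglia at 1d, and their part in the Csf1r values was not tested. Il3ra in myeloid cells was at 1.99, 2.32 and 3.61 CPM in Fgg and 1.74, 0.632 and 1.49 CPM in WT libraries (log2 fold change 1.03 ± 0.79, edgeR adjusted p = 0.624). In CPM Il3ra lay lower in every Fgg library (0.0402 to 0.239) than in every WT library (0.289 to 0.351) in microglia at 1d, on counts of 1 to 16 and 8 to 9, at a log2 fold change of -1.47 ± 0.84 (edgeR adjusted p = 0.89), where 2.99% of all genes lay lower without overlap. Csf2rb and Csf2rb2 differed by -0.07 and -0.17 on the log2 scale at 1d, and both turned positive, at 0.24 and 0.18, with total counts in place of TMM. The all-gene median was then 0.29, and relative to it the values were -0.05 for Csf2rb and -0.11 for Csf2rb2. Whether the genotype difference itself changed between 7d and 1d, or between myeloid cells and microglia at 1d, was tested with interaction terms. edgeR called 0 of the 7 in both tests (0.0% and 0.0252% of all genes), with 0 and 1 at an unadjusted p under 0.05 (2.74% and 8.37% of all genes), namely Il3ra between cell types (log2 2.50 ± 1.15, edgeR adjusted p = 0.583), and DESeq2 called 0 and 0.

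**Figure D5:**
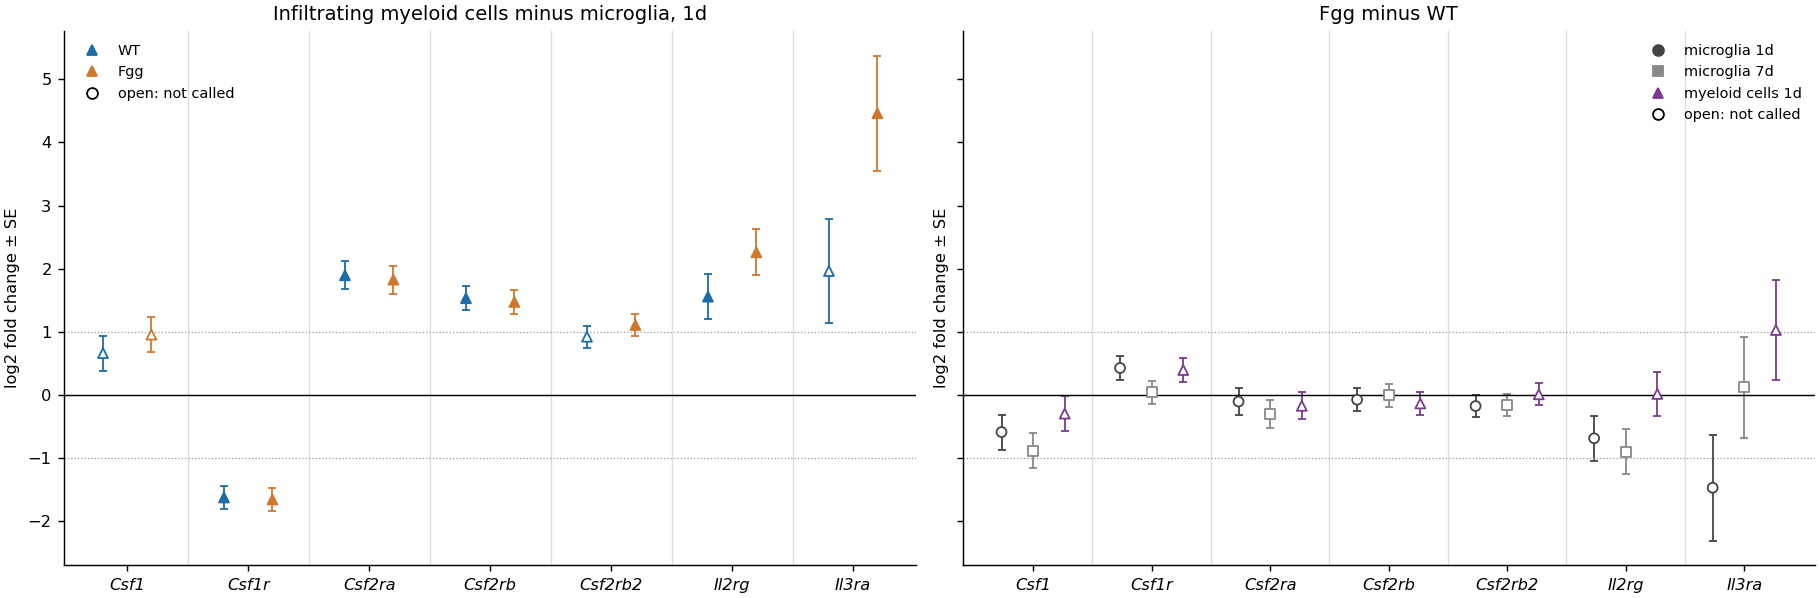
Log2 fold change ± SE of the 7 genes, at left for infiltrating myeloid cells over microglia at 1d in WT and Fgg mice, and at right for Fgg over WT in microglia at 1d and 7d and in myeloid cells at 1d. Filled symbols were called: 4 of 7 in WT and 6 of 7 in Fgg cells at left, and none at right.

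The ligands of these receptors were scarce or undetected in the sorted cells, apart from Csf1 and, at a low level, Il15. Csf2 (GM-CSF), Il3 and Il9 had 0 counts in all 21 libraries, which allows up to 0.0448 to 0.158 CPM per library. Il34, the second ligand of CSF1R, had 13 counts in 4 libraries, Csf3 105 counts in 5 libraries and Il5 10 counts in 1 library. Il21 had 2 counts in 1 library, Il7 17 counts in 5, Il4 220 counts in 5 and Il2 58 counts in 19 libraries. Il15 was found in all 21 libraries, with 10 to 239 counts. Its group means ran from 1.20 CPM in WT myeloid cells to 4.62 CPM in sham microglia, and it stood at 1.57 CPM in WT microglia at 1d. Such intervals and floors cover counting error only.

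Of the partner receptors, Csf3r, the G-CSF receptor, was called lower in WT microglia at 1d than in sham (log2 fold change -1.52 ± 0.25, edgeR adjusted p = 2.30e-04), at 58.8 ± 9.21 against 168 ± 16.2 CPM (SD, n = 3). It was the only one called of the 5 tested among 7 listed ligands and receptors of the CSF and beta common chain group. Of 11 tested among 13 listed partners of the gamma common chain, 2 were called higher and 1 lower, where 8.06% and 4.21% of all genes were. Il4ra, the IL-4 receptor alpha chain, stood at 78.3 ± 21.2 against 23.3 ± 7.05 CPM (SD, n = 3 libraries) in sham, with a log2 fold change of 1.75 ± 0.23 (edgeR adjusted p = 1.91e-05). Il7r, the IL-7 receptor alpha chain, was lower at a log2 fold change of -2.68 ± 0.44 (edgeR adjusted p = 1.99e-04), and Il2ra, the IL-2 receptor alpha chain, was higher at 4.03 ± 0.85 (adjusted p = 0.0019) with only 12 to 26 counts per library against 1 to 2 in sham. The median over each list was 0, as over all genes. Il5 in the first list and Il9r in the second had 0 counts in both groups. These medians therefore do not describe the detected genes, which lay both above and below sham. At 7d no gene of either list was called over sham in WT or Fgg microglia by edgeR. Of all genes, 1.93% and 0.63% were called higher there, and 0.0924% and 0.0336% lower.

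Of 18 genes for Janus kinases, STATs and adaptors that act below these receptors, 0 were called in WT microglia at 1d over sham (median log2 fold change -0.14), and 1 was called higher in Fgg microglia. Of 10 feedback and target genes of STAT5, 6 were called higher in WT and 4 in Fgg microglia at 1d, with a list median of 1.69 and 0.95, where 8.06% and 5.49% of all genes were called higher. The 4 with the smallest adjusted p in WT were Id2, a dominant-negative helix-loop-helix factor (log2 3.63 ± 0.37, edgeR adjusted p = 1.57e-06), Pim1, a survival kinase (2.49 ± 0.32, adjusted p = 1.83e-05), the cyclin gene Ccnd2 (3.89 ± 0.51, adjusted p = 1.91e-05) and Socs2, a feedback inhibitor of cytokine receptors (3.53 ± 0.61, adjusted p = 3.23e-04). These genes also answer other signals. At 7d 1 of the 10 was called higher in each genotype, where 1.93% of all genes were in WT and 0.63% in Fgg microglia. Of 8 transcription factors known to bind the Csf1r gene, 2 were called higher in WT microglia at 1d, Ets2 (1.74 ± 0.33, edgeR adjusted p = 6.86e-04) and Cebpb (1.10 ± 0.27, adjusted p = 0.00678). None of the genes of the 5 lists was called in any of the 3 genotype comparisons. Of all genes, 0.042%, 0.0378% and 0.197% were called there, in microglia at 1d and 7d and in myeloid cells.

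In WT myeloid cells against microglia at 1d, where 5.61% of all genes were called higher, the same lists were counted again. Of the receptors, Il7r (log2 4.97 ± 0.48, edgeR adjusted p = 8.02e-07), Il2ra (2.40 ± 0.71, adjusted p = 0.026) and Csf3r (1.73 ± 0.25, adjusted p = 7.77e-05) were called higher. Jak2, the kinase that the beta common chain recruits, was the only one of the 18 signaling genes called, at 36.5 ± 8.06 against 8.43 ± 0.477 CPM (SD, n = 3 libraries) and a log2 fold change of 2.11 ± 0.21 (edgeR adjusted p = 1.24e-06). Of the 10 STAT5 genes 5 were called higher, led by Pim1 (3.96 ± 0.33, edgeR adjusted p = 2.52e-07) and Mcl1, a survival factor of the BCL-2 family (2.03 ± 0.20, adjusted p = 1.08e-06), then Osm, the cytokine oncostatin M (3.22 ± 0.50, adjusted p = 1.23e-04), and Cish, a feedback inhibitor (3.66 ± 0.82, adjusted p = 0.00388). Of the 8 transcription factors Cebpb (2.51 ± 0.28, edgeR adjusted p = 3.26e-06) and Ets2 (1.79 ± 0.32, adjusted p = 5.98e-04) were called.

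The genes whose levels followed each member most closely are given as a description over all 21 libraries, which share group differences and depth, among 12239 other genes of at least 1 CPM. For Csf1 the closest was Il2rg (Pearson r of log2 CPM 0.955), then Spp1, the secreted phosphoprotein osteopontin (0.932), and Cxcl16 (0.928). For Il2rg, Rai14 (0.962), Cd52 (0.962) and Spp1 (0.961) came first. Csf1r was followed most closely by Sparc, Lrrc3 and Rasgrp3 (0.988, 0.987 and 0.987), of which Sparc is one of the 11 microglial markers. The closest to Csf2ra were Myo5a, Fabp5 and Capn1 (0.967, 0.960 and 0.954), to Csf2rb Rnh1, Rnf149 and Pitpna (0.986, 0.986 and 0.985), and to Csf2rb2 Capn2, Arf1 and Rbms1 (0.991, 0.987 and 0.985). The closest to the sparse Il3ra were Itga4, a listed monocyte marker, Use1 and Gas7 (0.913, 0.911 and 0.905, among 12240 genes).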

How the data were processed

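RNA from 21 libraries (7 groups of 3, groups and replicate numbers from the sample titles) was sequenced as paired-end reads on 3 shared lanes. The deposited values were expected counts, or estimated counts, per gene, which the authors made by aligning reads to GRCm38 with STAR, quantifying transcripts with salmon (nf-core/rnaseq) and scaling the abundances to library size, so that transcript length was divided out. The authors' notes name R 4.2.0 and DESeq2 1.36.0. Ribosomal RNA genes held 43.0 to 58.5% of the counts, which leaves fewer counts for the other genes.

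The values were rounded to whole counts. Genes with at least 5 counts over all libraries (23815 of 45706) were fitted together with edgeR 4.0.16 (R 4.3.3), with TMM factors, 1 mean per group and the quasi-likelihood test, and p-values were adjusted by Benjamini-Hochberg over all genes tested. A call needed a log2 fold change beyond 1 and an adjusted p under 0.05, and interactions only the latter. One fit of all groups shares 1 estimate of the spread. Each library pooled 2 brains, and no 2 libraries of a group agreed within sampling noise. Total counts ran from 18896957 to 51875767, and 3 counts were worth 0.0448 to 0.158 CPM. The fit was tested on simulated data for WT microglia at 1d against sham (23253 genes), where edgeR recovered 55% of 200 genes changed by a log2 of 2, with 1 other gene called, and DESeq2 1.42.0 recovered 72.5% with 56 others. With no gene changed in the simulation (23217 genes), edgeR called 0 genes and DESeq2 called 17. The correlation of same-numbered replicates' deviations from their group means was over 0.1 for every number only between Fgg and WT microglia at 1d (0.372, 0.151 and 0.104, against a mean of -0.104 for other pairs). The labels do not say that a number marks a shared animal or day. Other settings were DESeq2, its size factors, no count filter, a replicate block, the compared groups alone, each library left out, an adjusted p under 0.1 between genotypes and, chosen after seeing the data, total counts in place of TMM.

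The 7 genes and the gene lists were chosen with earlier results of these data known. Besides the 7 genes, the text names at most 4 called genes per list, by smallest adjusted p, in WT microglia at 1d against sham, between genotypes and between WT cell types, and for each of the 7 the 3 genes with the highest Pearson r among genes of at least 1 CPM on average. Ligands were all listed. Sequences came from RefSeq (GRCm38.p6) promoters and the GENCODE M21 transcripts.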

Additional observations from a re-analysis of the deposited data

How the results depend on the processing

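Without the count filter all 77 log2 fold changes of the 7 genes in 11 comparisons kept direction and call. With the replicate block 76 did, and the other, Il2rg between Fgg and WT myeloid cells, was -0.0015. The block changed no call of the 7 genes and moved no count of calls by over 1.5 times. The pairing check held between Fgg and WT microglia at 1d alone. With DESeq2 the calls over all genes were 825 (481 by edgeR) in WT and 347 (158) in Fgg microglia at 7d over sham, 67 (10), 69 (9) and 505 (47) between genotypes in microglia at 1d and 7d and in myeloid cells, and 24 (0) and 137 (6) for the interactions by time and by cell type, and 1 of the 7 genes was called between 7d and 1d in Fgg microglia. The last interaction had 2 calls with DESeq2's size factors, 1 with total counts and 0 with the compared groups alone. With the compared groups alone there were 85 calls for Fgg microglia at 7d over sham, 6 and 7 between genotypes in microglia at 1d and in myeloid cells, and 2211 (3967) for Fgg myeloid cells over microglia. At an adjusted p under 0.1 myeloid cells had 108 genotype calls. Csf1 between 7d and 1d in Fgg microglia was 0.047 with DESeq2 and with its size factors, and 0.072 with total counts.

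With total counts, chosen after seeing the data, 3 of the 7 genes were called in WT microglia at 1d over sham, and all-gene calls were 826 and 85 at 7d over sham in WT and Fgg microglia and 29 between genotypes in myeloid cells. The share of calls that were higher moved from 65.7 to 17.3% (WT 1d over sham), 95.4 to 24.7% (WT 7d), 82.7 to 44.0% (Fgg 1d, and 71.7% with DESeq2's size factors), 94.9 to 80.0% (Fgg 7d), 37.9 to 48.8% (WT 7d over 1d), 41.8 to 23.7% (Fgg myeloid cells over microglia) and 59.6 to 48.3% (genotype in myeloid cells). The summed beta chain counts in WT microglia at 1d over sham were at 1.00 with DESeq2 and its size factors, just under the fold threshold, and 0.33 with total counts, and in Fgg myeloid cells over microglia 0.93. Values that turned with total counts were Csf2rb, Csf2rb2 and their sum in WT microglia at 7d over sham (-0.15, -0.0093 and -0.087), Il2rg from 1d to 7d in WT (0.12), Csf2ra, Csf2rb, Csf2rb2 and the sum between genotypes at 1d (0.23, 0.24, 0.18 and 0.22), Csf2rb, Csf2rb2 and the sum at 7d (0.22, 0.078 and 0.16), and Il2rg and Csf2rb2 in myeloid cells (-0.034 and -0.034). The all-gene medians with total counts were -0.47 in WT microglia at 7d over sham and 0.15 from 1d to 7d in WT. Between genotypes they were 0.29 at 1d, 0.18 at 7d and 0 in myeloid cells. Relative to them, the turned values at 7d over sham and between genotypes at 1d kept their TMM direction. Csf2ra at 7d over sham in Fgg microglia (0.90), Csf2rb2 at 1d in Fgg microglia (0.60) and Csf2rb2 in Fgg myeloid cells over microglia (0.70) lost their calls.

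Leaving out 1 library at a time, 427 of 462 values of the 7 genes kept direction and call, 7 lost and 12 gained a call, and 16 turned. The ranges were 0 to 1 of the 7 genes for Fgg microglia at 7d over 1d, and over all genes 463 to 1163 there, 283 to 486 and 74 to 179 at 7d over sham in WT and Fgg microglia, 6 to 42, 5 to 7 and 32 to 298 between genotypes in microglia at 1d and 7d and in myeloid cells, and 0 to 71 for the interaction by cell type. Log2 fold changes ranged from -0.60 to 1.09 for Il3ra and 0.89 to 1.09 for the beta chain sum in Fgg microglia at 1d over sham, -0.25 to 0.10 and -0.21 to 0.14 for Csf1r at 7d over sham in WT and Fgg microglia, -0.33 to 0.28 for Csf1 from 1d to 7d in Fgg and -0.44 to 0.059 for Il2rg in WT microglia. Between genotypes they ranged from -0.17 to 0.057 for Csf2rb at 1d, -0.054 to 0.075 for Csf2rb and -0.044 to 0.21 for Il3ra at 7d, and in myeloid cells from -0.33 to 0.10 for Csf2rb, -0.050 to 0.15 for Csf2rb2, -0.21 to 0.12 for their sum, -0.11 to 0.16 for Il2rg and -0.45 to 0.057 for Csf2ra. The cause of these changes was not tested. By Spearman's rho 1 of the 3 closest genes remained for each of Csf1, Csf1r and Csf2ra, 2 for Il3ra and 0 for the other genes. Il3ra, with 543 counts in all libraries, is limited by depth, and its sham libraries lay near 3 counts.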
